A study of Mus musculus with 8 samples.

Results

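The enzymes described here convert dehydroepiandrosterone (DHEA) and related neurosteroids. The members were the 10 genes Sts, Cyp7b1, Srd5a1, Srd5a3, Cyp19a1, Hsd17b4, Hsd17b10, Hsd17b12, Hsd11b1 and Akr1c14, picked by symbol from the 29442 genes of the deposited count table for their known roles. All 10 were found in the table, and 9 of them had at least 1 count in every library. RNA came from female C57BL/6 J mice aged 6 to 8 weeks. The test group (n = 4) received DHEA at 30 mg/kg/day and the control group (n = 4) sesame oil, the vehicle, by abdominal subcutaneous injection for 21 days, and behavioural tests preceded dissection in both groups. Groups here follow the deposited labels. The study's own table of fold changes carries the opposite sign, so directions below hold for the libraries as labelled. The labels name the tissue as hippocampus, and the methods name its ventral part. The injected dose was not measured in the tissue by these data, and the RNA gives transcript levels, not enzyme activity.

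DHEA is an androgen precursor that also occurs as a sulfate, itself a neuroactive steroid. In target tissues, a sulfatase frees it from the sulfate, hydroxylases divert it to oxygenated products, and hydroxysteroid dehydrogenases, a steroid 5-alpha reductase and aromatase carry it and its products to androgens and estrogens. The same reductase, followed by an aldo-keto reductase, makes the progesterone metabolite allopregnanolone, a neurosteroid that acts on GABA-A receptors. The hippocampus is a known site of such local conversion.

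The libraries labelled DHEA held 38038361, 36792550, 35748416 and 36206289 counts (libraries 1 to 4), and those labelled sesame oil 32757366, 35418297, 31483772 and 33109760. Every DHEA library was deeper than every sesame oil library. The share of counts on the 13 mitochondrially encoded protein genes was also higher in each DHEA library (7.29% to 9.34%) than in each sesame oil library (6.37% to 7.23%). The correlation across genes of a library's deviation with GC content ran from -0.11 to -0.0047 in the DHEA libraries and from 0.056 to 0.14 in the sesame oil libraries. All 3 measures move with the groups and cannot be told apart from the treatment. Neuronal and hippocampal markers were abundant in all libraries, with Snap25 between 1771 and 2040 counts per 1000000 counts (CPM, after TMM normalization) and Neurod6 between 193.8 and 256.3 CPM. DHEA libraries 1 and 2 stood apart on the first principal component of genes whose mean count was 10 or more (21.8 and 35.6). The other DHEA libraries lay at -11.1 and -12.7 and the sesame oil libraries between -10.04 and -3.62. DHEA library 4 and sesame oil library 4 were registered apart from the other 6 libraries, and the labels do not say whether they were also prepared apart.

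No member passed an adjusted p of 0.05 in edgeR's quasi-likelihood test, and neither did any other gene (0.0% of the 27612 genes tested). DESeq2 called 153 genes and limma-trend on log2(FPKM + 1) called 0 at the same adjusted threshold, and no member was among them. DESeq2 gave no adjusted p for Cyp19a1 and Akr1c14, so its count is 0 of the other 8 members. At an unadjusted p under 0.05, Sts was lower and Srd5a1 and Hsd11b1 were higher in the libraries labelled DHEA, 3 of the 10 members. The background at this threshold was 9.31% of all genes, 4.82% in the higher and 4.49% in the lower direction, and 13.1% of genes whose mean count was 10 or more, a level that 9 of the members reached. In the higher direction it was 6.85% of those genes. No member met the study's thresholds (unadjusted p under 0.05 with a fold of 2 or more, or of 0.5 or less), which 1.6% of all genes met. Sts was the 1 member whose groups did not overlap in CPM, against 5.04% of all genes and 7.17% of those whose mean count was 10 or more. Of the 9 members other than Cyp19a1, 7 had positive and 2 negative log2 fold changes, and their median was 0.11, beside 0.0079 over all genes tested. Without DHEA library 2, 5 were positive and 4 negative with a median of 0.027, and without both DHEA libraries 1 and 2 the median was 0.028. Without both DHEA libraries 1 and 2, no member had an unadjusted p under 0.05 (0 of 10). In bulk tissue, fewer cells of a type and less RNA per cell cannot be told apart.

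**Figure D1:**
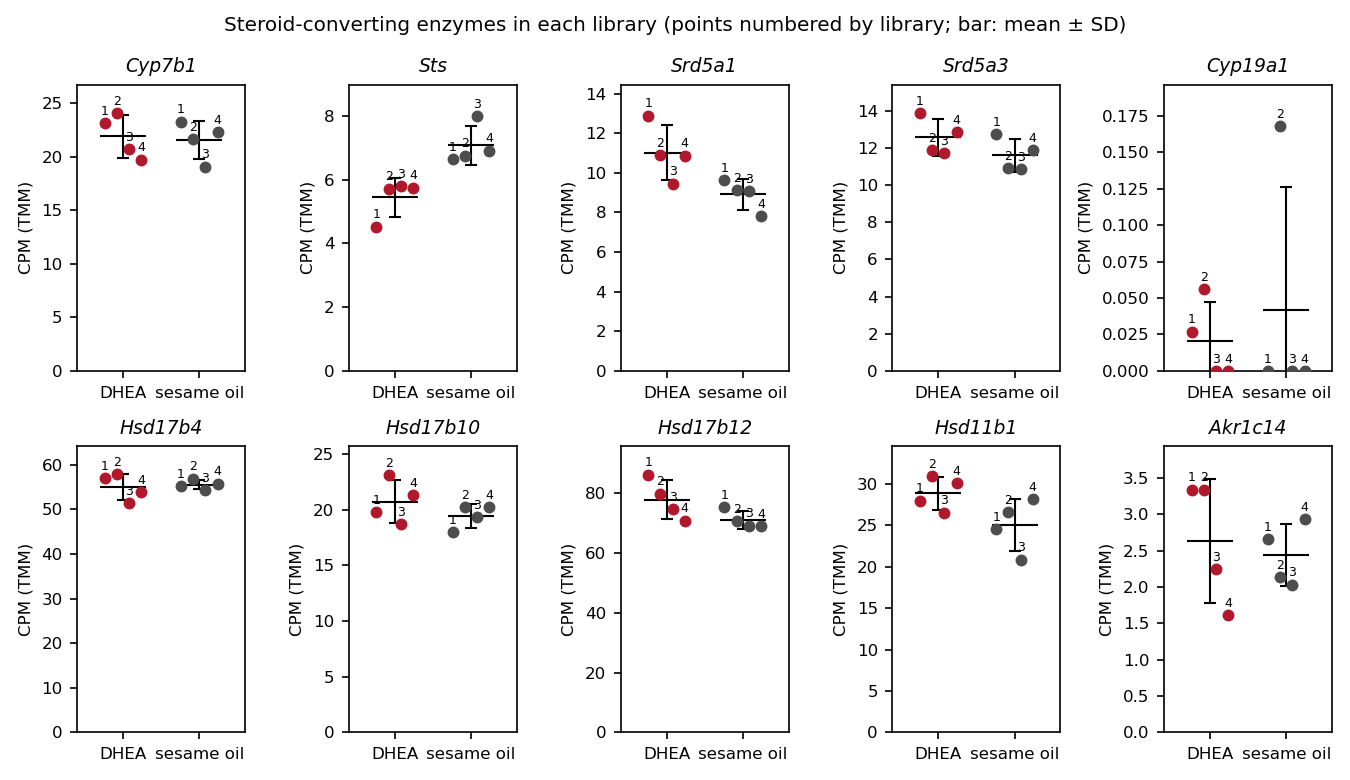
Level of each member in CPM (vertical axes, starting at 0) in the 4 DHEA and 4 sesame oil libraries. Points carry the library number, and the bars give mean ± SD. The Sts points of the groups do not overlap, and the highest Sts level under DHEA is 5.80 CPM against a lowest level of 6.64 CPM under sesame oil.

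Sts encodes steroid sulfatase, which releases free DHEA from DHEA sulfate. Sts was at 4.52, 5.72, 5.80 and 5.75 CPM in DHEA libraries 1 to 4 and at 6.64, 6.76, 7.997 and 6.91 CPM in sesame oil libraries 1 to 4. All DHEA libraries lay below all sesame oil libraries, and DHEA library 1 was the lowest and sesame oil library 3 the highest. The group means were 5.45 ± 0.618 CPM (SD, n = 4) under DHEA and 7.08 ± 0.624 CPM (SD, n = 4) under sesame oil (p = 0.0286 by a two-sided exact permutation test, where 4 against 4 libraries allow none smaller). In edgeR its log2 fold change was -0.38 (SE 0.14, 95% interval -0.68 to -0.078), a fold of 0.770, with an unadjusted p of 0.0163 and an adjusted p of 0.412. The raw counts were 168 to 210 in the deeper DHEA libraries and 220 to 252 in the shallower sesame oil libraries, and the groups did not overlap in raw counts either. Without DHEA library 1 the log2 fold change was -0.30 (unadjusted p of 0.0625 in edgeR), without sesame oil library 3 it was -0.32 (0.0576), and without both DHEA libraries 1 and 2 it was -0.30 (0.0617). Sts had no GC content value in the annotation used, so its change was not corrected for the GC trend.

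Among the partners of sulfatase, 7 genes of steroid sulfation and sulfatase cofactors were tested. The brain sulfotransferase Sult4a1 was the most abundant of them per gene length at 121.0 FPKM (fragments per kilobase of gene length and per library total), and its log2 fold change was 0.012 (edgeR adjusted p = 0.966). Sumf1 and Sumf2, which activate sulfatases or resemble the activating enzyme, had 597 to 806 and 257 to 360 counts per library. Sult1a1, a sulfotransferase of phenols, was at 8.78, 7.66, 6.82 and 17.6 CPM under DHEA and at 6.55, 8.24, 7.84 and 5.75 CPM under sesame oil. The groups overlapped, and DHEA library 4 lay far above all others. The log2 fold change of 0.52 (SE 0.23, unadjusted p of 0.035 in edgeR) was 0.13 without that library and 0.039 without both libraries numbered 4. The estrogen sulfotransferase Sult1e1 had 0 counts in all libraries, where 3 counts correspond to 0.0789 to 0.0953 CPM of the raw library totals, without TMM normalization.

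Srd5a1 encodes the 5-alpha reductase that makes dihydrotestosterone from testosterone and takes progesterone towards allopregnanolone. It was at 12.9, 10.9, 9.46 and 10.9 CPM in the DHEA libraries and at 9.63, 9.11, 9.08 and 7.83 CPM in the sesame oil libraries. The groups overlapped at 1 point, since DHEA library 3 lay below sesame oil library 1. The means were 11.03 ± 1.41 and 8.91 ± 0.766 CPM (SD, n = 4 each; exact two-sided permutation p = 0.0571). The log2 fold change in edgeR was 0.31 (SE 0.12, 95% interval 0.048 to 0.57), a fold of 1.24, with an unadjusted p of 0.023 and an adjusted p of 0.452. It was 0.22 without DHEA library 1 (unadjusted p of 0.106), 0.25 without sesame oil library 4 (0.0782), 0.18 without DHEA libraries 1 and 2 (0.182) and 0.26 without both libraries numbered 4 (0.095).

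Srd5a3 belongs to the same family, and its main known role is to reduce polyprenol to dolichol for protein glycosylation. Its levels were 13.9, 11.9, 11.7 and 12.8 CPM under DHEA and 12.7, 10.9, 10.9 and 11.9 CPM under sesame oil, and the groups overlapped. In edgeR its log2 fold change was 0.12 (SE 0.11, 95% interval -0.11 to 0.34, adjusted p = 0.666). The FPKM ratio of Srd5a1 to Srd5a3 within a library was 2.31 ± 0.152 under DHEA and 2.03 ± 0.222 under sesame oil (SD, n = 4 each; exact two-sided permutation p = 0.114), so a difference between the reductases was not detectable with 4 libraries per group. Of 4 other genes listed with these reductases, none had an unadjusted p under 0.05 (0 of 4, edgeR) or an adjusted one (0 of 4). The prostate-type reductase gene Srd5a2 had 0 to 8 counts per library. Tecr, a fatty acid enoyl reductase related in sequence, was the most abundant at 186.6 FPKM. It was at 198.1 to 219.8 CPM under DHEA and 221.0 to 234.8 CPM under sesame oil without overlap (exact two-sided permutation p = 0.0286; edgeR log2 fold change -0.12, adjusted p = 0.549), and the groups overlapped once the GC trend was removed (exact permutation p = 0.229). Tecr had an unadjusted p under 0.05 in 7 of 20 alternative settings, among them DESeq2, RLE size factors and limma-trend, and Srd5a2 had one without DHEA library 1.

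The promoters of both reductases and of Hsd11b1 are printed because Srd5a1 and Hsd11b1 are the members with an unadjusted p under 0.05 that had a promoter in the reference, and Srd5a3 is the relative of Srd5a1. Each sequence runs 5′ to 3′ on the gene's strand from 250 bases before to 50 bases after a transcript start of RefSeq on GRCm38.p6. Capitals mark the GC box GGGCGG or its reverse CCGCCC, and the androgen and glucocorticoid receptor half-site AGAACA or TGTTCT where present.
Srd5a1, chr13:69611414-69611713, minus strand: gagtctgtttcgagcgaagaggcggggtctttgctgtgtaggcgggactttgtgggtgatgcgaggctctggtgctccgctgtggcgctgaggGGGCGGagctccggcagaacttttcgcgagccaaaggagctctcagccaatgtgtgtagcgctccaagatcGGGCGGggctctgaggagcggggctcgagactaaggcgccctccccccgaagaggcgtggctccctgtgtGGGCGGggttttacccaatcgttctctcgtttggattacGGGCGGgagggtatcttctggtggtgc
Srd5a3, chr5:76140023-76140322, plus strand: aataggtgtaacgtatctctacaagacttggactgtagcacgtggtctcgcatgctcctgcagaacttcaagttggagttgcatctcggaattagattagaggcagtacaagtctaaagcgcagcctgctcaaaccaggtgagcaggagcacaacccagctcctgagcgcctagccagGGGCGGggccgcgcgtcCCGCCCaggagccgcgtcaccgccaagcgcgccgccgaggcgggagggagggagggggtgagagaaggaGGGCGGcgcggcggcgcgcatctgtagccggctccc
Hsd11b1, chr1:193242311-193242610, minus strand: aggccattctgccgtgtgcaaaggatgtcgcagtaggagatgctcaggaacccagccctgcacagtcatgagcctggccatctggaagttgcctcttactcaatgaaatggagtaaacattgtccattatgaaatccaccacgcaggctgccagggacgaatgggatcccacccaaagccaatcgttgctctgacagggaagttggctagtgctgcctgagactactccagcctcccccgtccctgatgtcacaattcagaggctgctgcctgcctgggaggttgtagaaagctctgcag

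The Srd5a1 and Srd5a3 windows were alike in composition, with 63.0% and 63.3% GC, 24 and 26 CpG dinucleotides and 4 and 3 GC boxes. The Hsd11b1 window had 54.7% GC, 6 CpG and 0 GC boxes. The median over all promoters of the reference was 52.7% GC and 7 CpG, and 35.7% of the 32851 promoters held a GC box on either strand. Promoters were found for 7 of the 10 members, and Hsd17b10 and Hsd17b12 also had a GC box. The half-site letters were in none of the members' windows (0 of 7 genes), against 19.0% of all promoters, which says only that these letters are not in these windows.

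Cyp7b1 encodes the oxysterol and steroid hydroxylase that turns DHEA into its 7-alpha hydroxylated product. It was at 23.1, 24.04, 20.7 and 19.7 CPM under DHEA and 23.2, 21.6, 19.0 and 22.3 CPM under sesame oil. The groups overlapped over most of their ranges. The edgeR log2 fold change was 0.023 (SE 0.095, adjusted p = 0.953), and the 95% interval of -0.18 to 0.22 corresponds to the differences that these libraries could not resolve. The sign turned negative on FPKM and after removal of the GC trend. Of 9 other sterol and steroid hydroxylases tested, Cyp1b1, an estrogen hydroxylase of vascular and meningeal cells, had an unadjusted p under 0.05, and it was 1 of 8 (12.5%) among those whose mean count was 10 or more, against 13.1% of such genes. Cyp1b1 was at 10.3, 10.4, 6.33 and 11.4 CPM under DHEA and 6.10, 6.87, 5.49 and 8.42 CPM under sesame oil, with DHEA library 3 among the sesame oil values (edgeR log2 fold change 0.51, SE 0.17, adjusted p = 0.363). Its unadjusted p was above 0.05 with limma-trend on FPKM (0.0632 with 1 added and 0.0561 with 0.1 added) and without both DHEA libraries 1 and 2 (log2 fold change 0.39, unadjusted p of 0.0939 in edgeR). Cyp46a1, the neuronal cholesterol hydroxylase, was the most abundant of them at 31.8 FPKM and had a log2 fold change of -0.14 (edgeR adjusted p = 0.585).

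Hsd11b1 encodes the enzyme that regenerates active glucocorticoid from its inert ketone and that also interconverts oxygenated DHEA metabolites. It was at 28.0, 30.9, 26.6 and 30.1 CPM under DHEA and 24.5, 26.6, 20.9 and 28.2 CPM under sesame oil. The groups overlapped, with sesame oil library 4 above DHEA libraries 1 and 3, and sesame oil library 3 was the lowest. The means were 28.9 ± 1.997 and 25.1 ± 3.15 CPM (SD, n = 4 each; exact two-sided permutation p = 0.143). The log2 fold change in edgeR was 0.21 (SE 0.095, 95% interval 0.0052 to 0.41), with an unadjusted p of 0.0449 and an adjusted p of 0.531. This p was above 0.05 in 13 of 20 alternative settings, among them the fits without DHEA library 2 (log2 fold change 0.16), DHEA library 4 (0.19), sesame oil library 1 (0.20) or sesame oil library 3 (0.12). It was 0.17 without both DHEA libraries 1 and 2 (unadjusted p of 0.143). The opposing dehydrogenase gene Hsd11b2 had 0 to 1 counts per library. Cyp21a1 and Cyp11b2, genes of corticosteroid synthesis, also had 0 to 1 counts, and Cyp11b1 had 0 counts.

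The 17-beta hydroxysteroid dehydrogenase members are enzymes with broad substrates. Hsd17b12, which also elongates very long chain fatty acids, was at 86.2, 79.9, 74.8 and 70.8 CPM under DHEA and 75.4, 70.6, 69.2 and 69.0 CPM under sesame oil. The groups overlapped, and DHEA libraries 1 and 2 were above all sesame oil libraries. The edgeR log2 fold change was 0.13 (SE 0.070, 95% interval -0.014 to 0.28, adjusted p = 0.578), and it fell to 0.028 without DHEA libraries 1 and 2. Hsd17b10, a mitochondrial enzyme that oxidizes neurosteroids and serves in mitochondrial tRNA processing, was at 19.8, 23.1, 18.7 and 21.3 CPM against 17.99, 20.2, 19.3 and 20.2 CPM (log2 fold change 0.092, SE 0.093, edgeR adjusted p = 0.694). Hsd17b4, the peroxisomal bifunctional enzyme of fatty acid oxidation, was at 57.0, 58.0, 51.4 and 53.8 CPM against 55.3, 56.9, 54.3 and 55.8 CPM. Its edgeR log2 fold change was -0.014 with the narrowest interval of the members (-0.15 to 0.12), and its sign turned after removal of the GC trend. The ratio of Hsd17b12 to Hsd17b4 in FPKM was 2.07 ± 0.126 under DHEA and 1.87 ± 0.0857 under sesame oil (SD, n = 4 each; exact two-sided permutation p = 0.0571), a comparison chosen after the values were seen. Its ratio to Hsd17b10 was 1.88 under DHEA and 1.82 under sesame oil (exact two-sided permutation p = 0.771). To Akr1c14 it was 52.78 and 49.55 (exact two-sided permutation p = 0.743).

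Of 14 other hydroxysteroid dehydrogenases tested, 2 had an unadjusted p under 0.05, and both were higher in the libraries labelled DHEA. This was 14.3% of the list against 9.31% of all genes, and 2 of the 7 with a mean count of 10 or more (28.6%) against 13.1% of such genes. Hsd17b11, a dehydrogenase of lipid droplets and the most abundant of this list at 25.2 FPKM, was at 44.5, 49.6, 44.97 and 43.8 CPM under DHEA and 38.4, 38.8, 40.7 and 42.0 CPM under sesame oil. Dhrs7, a related short-chain dehydrogenase, was at 20.1, 19.7, 18.1 and 17.8 CPM under DHEA and 16.1, 14.5, 15.5 and 16.9 CPM under sesame oil. The groups did not overlap for either gene (exact two-sided permutation p = 0.0286 for each). This held for 2 of the 14 genes tested (14.3%), against 5.04% of all genes. Among genes whose mean count was 100 or more, as for both of these, it held for 8.46%. The edgeR log2 fold changes were 0.19 (SE 0.070, adjusted p = 0.391) for Hsd17b11 and 0.27 (SE 0.093, adjusted p = 0.385) for Dhrs7. The unadjusted p for Hsd17b11 was 0.0577 in edgeR without DHEA library 2, and Dhrs7 had a log2 fold change of 0.18 (unadjusted p of 0.0806) without both DHEA libraries 1 and 2.

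Cyp19a1 encodes aromatase, which makes estrogens from androgens. It had 1, 2, 0 and 0 counts in the DHEA libraries and 0, 6, 0 and 0 counts in the sesame oil libraries. Apart from sesame oil library 2, every library was below 3 counts, and no fold change is read from these counts. Any difference was not detectable at this depth.

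Akr1c14 encodes the 3-alpha hydroxysteroid dehydrogenase that completes the synthesis of allopregnanolone. It was at 3.34, 3.34, 2.25 and 1.62 CPM under DHEA and 2.66, 2.13, 2.03 and 2.94 CPM under sesame oil. The DHEA libraries held both the highest and the lowest values. The edgeR log2 fold change was 0.11 with a wide 95% interval of -0.41 to 0.64 (adjusted p = 0.892), and it was -0.34 without DHEA libraries 1 and 2. The gene lies in a family of close relatives between which short reads can be shared, so its counts carry this uncertainty. Of 11 other aldo-keto reductases tested, none had an unadjusted p under 0.05 (0 of 11, edgeR) or an adjusted one (0 of 11). The aldehyde reductase Akr1a1 was the most abundant at 151.3 FPKM (log2 fold change 0.11, edgeR adjusted p = 0.587).

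**Figure D2:**
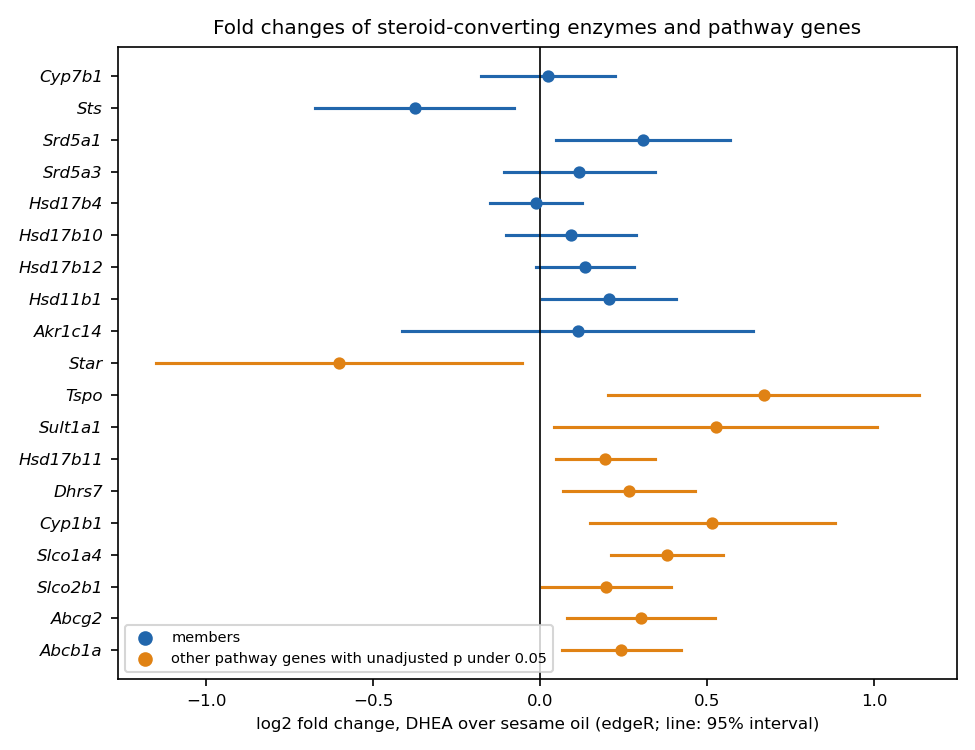
Log2 fold change of DHEA over sesame oil (horizontal axis) from edgeR with its 95% interval, for the members without Cyp19a1 (blue) and for the other pathway genes with an unadjusted p under 0.05 (orange). The intervals of Sts, Srd5a1 and Hsd11b1 lie off 0, from -0.68 to -0.078, from 0.048 to 0.57 and from 0.0052 to 0.41, and those of the other members cross it.

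Levels were compared between genes in FPKM, which corrects for gene length. Hsd17b12 was the most abundant member at 40.5 ± 2.69 FPKM (SD, n = 8 libraries), and its lowest library (37.7 FPKM) was above all other members. Hsd17b10 followed with 22.02 ± 1.55 FPKM and Hsd17b4 with 20.6 ± 0.652 FPKM, and the ranges of these neighbours overlapped. Hsd11b1 was at 16.3 ± 1.85 FPKM and Cyp7b1 at 8.90 ± 0.667 FPKM, each clear of its neighbours in range. Sts (3.91 ± 0.684 FPKM) and Srd5a1 (3.27 ± 0.461 FPKM) overlapped over the 8 libraries. Within the groups, mean Sts and Srd5a1 levels were 3.36 and 3.58 FPKM under DHEA and 4.45 and 2.95 FPKM under sesame oil. Srd5a3 was at 1.503 ± 0.121 FPKM, Akr1c14 at 0.827 ± 0.197 FPKM, and Cyp19a1 was the lowest with a range of 0 to 0.0547 FPKM.

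**Figure D3:**
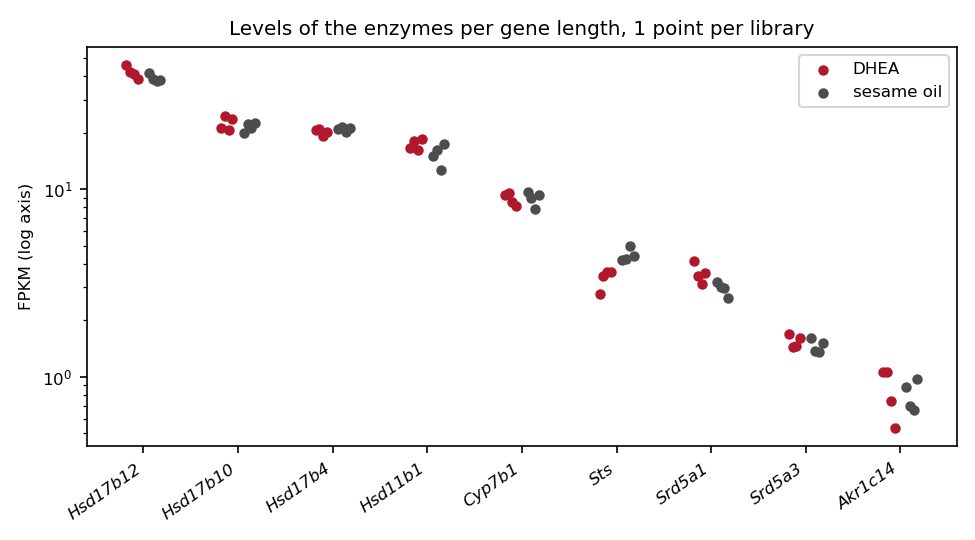
FPKM (vertical axis, log scale) of the members except Cyp19a1, which is listed at 0 in most libraries, with 1 point per library. The members are ordered by their mean over the 8 libraries, from Hsd17b12 at 40.5 FPKM to Akr1c14 at 0.827 FPKM.

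The members did not vary as 1 block across the 8 libraries. Of the 36 pairs among 9 members (all but Cyp19a1), 27 had a positive Pearson r of log2(CPM + 0.5), with a median of 0.29. Cyp7b1 and Akr1c14 were the most alike (r = 0.87), followed by Srd5a1 and Hsd17b12 (r = 0.83). Sts ran against Hsd17b12 (r = -0.84), Srd5a1 (r = -0.84) and Srd5a3 (r = -0.79). These points share libraries, depth and GC trend and include both groups, so the values are descriptions. Among the 12780 genes whose mean count was 100 or more, the patterns most like that of Sts were those of Slc29a2 (r = 0.94) and Diras1 (r = 0.94), and those most like Srd5a1 were Clic1 (r = 0.97) and Dram2 (r = 0.97). For Hsd11b1 they were Bcl10 (r = 0.98) and Snx30 (r = 0.98), and for Hsd17b12 Ccdc47 (r = 0.98) and Cisd2 (r = 0.98). Cyp7b1 and Akr1c14 shared Sox2, a gene of neural stem cells and glia, among their most alike genes (r = 0.94 and 0.97), with Klhl11 (r = 0.94) and Tsr1 (r = 0.97) beside it. The pairs for the other members were Zbtb11 and Zfp248 for Srd5a3 (r = 0.96 and 0.92), Lrrc6 and Cap2 for Hsd17b4 (r = 0.97 for each), and B4galt4 and Frs2 for Hsd17b10 (r = 0.96 and 0.95).

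The rest of the pathway was read from 9 lists of 80 other genes, of which 76 were in the table and 73 had at least 1 count. Of these, 10 (13.7% of 73) were past the unadjusted threshold of edgeR, 9 higher and 1 lower under DHEA, and none passed adjustment (0 of 73). The share over all genes was 9.31%. Groups did not overlap in CPM for 5 of the 73 (6.85%), against 5.04% of all genes. Of the 50 pathway genes whose mean count was 10 or more, 10 (20%) were past the threshold, against 13.1% of such genes. The median log2 fold change of all 73 was 0.065. Transcripts for DHEA synthesis itself were scarce, since Cyp17a1, whose enzyme makes DHEA, had 0 to 7 counts per library and Hsd3b1, Hsd3b2 and Hsd3b6, genes of the dehydrogenase that carries DHEA to androstenedione, 0 to 1 counts. Hsd3b3 had 0 counts in all libraries. Of the 5 genes of this step tested, none had an unadjusted p under 0.05 (0 of 5, edgeR) or an adjusted one (0 of 5), and the most abundant was the oxysterol and bile acid enzyme Hsd3b7 (2.85 FPKM, log2 fold change -0.083, edgeR adjusted p = 0.851). Cyp11a1, the side-chain cleavage enzyme that starts steroid synthesis, had 175 to 222 counts per library.

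The list of cholesterol delivery and side-chain cleavage, with the partners of these enzymes, held 1 gene past the unadjusted threshold in each direction. These were 22.2% of 9 tested, against 13.1% of genes whose mean count was 10 or more. Star, which carries cholesterol into mitochondria, was at 1.13, 1.01, 1.64 and 1.45 CPM under DHEA and 1.81, 2.13, 2.35 and 1.66 CPM under sesame oil. Its raw counts overlapped between the groups, at 59 in DHEA library 3 and 56 in sesame oil library 4. In CPM the groups did not overlap, although these libraries differed by little (exact two-sided permutation p = 0.0286; edgeR log2 fold change -0.60, SE 0.26, adjusted p = 0.499). Its unadjusted p was above 0.05 without DHEA library 1, DHEA library 2, sesame oil library 2 or sesame oil library 3 (log2 fold changes between -0.5675 and -0.5053), and the log2 fold change was -0.37 without both DHEA libraries 1 and 2. Tspo, a protein of the outer mitochondrial membrane that is abundant in microglia and vessels, was at 4.09, 2.69, 2.80 and 3.86 CPM under DHEA and 1.99, 2.72, 1.84 and 1.90 CPM under sesame oil. Sesame oil library 2 lay within the DHEA range (edgeR log2 fold change 0.67, SE 0.22, unadjusted p of 0.0074, adjusted p = 0.341), and its unadjusted p was 0.0527 without both libraries numbered 4. Pgrmc1, a haem-binding partner of cytochrome enzymes and the most abundant gene of this list (145.8 FPKM), had a log2 fold change of 0.090 (edgeR adjusted p = 0.666).

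Steroid conjugate transport had the most genes past the unadjusted threshold, 4 of 12 tested (33.3%) and all of them higher in the libraries labelled DHEA, against 4.82% of all genes in this direction. Among those whose mean count was 10 or more it was 4 of 11 (36.4%), against 6.85% of such genes. Without both DHEA libraries 1 and 2, 1 of these 4 genes was past the threshold. In either direction, 9.31% of all genes were past it, and 13.1% of genes whose mean count was 10 or more. Slco1a4, an organic anion carrier of brain capillaries that takes up DHEA sulfate, was at 70.8, 82.0, 73.6 and 88.6 CPM under DHEA and 61.5, 54.2, 60.2 and 66.3 CPM under sesame oil, and the groups did not overlap (exact two-sided permutation p = 0.0286). Its edgeR log2 fold change was 0.38 (SE 0.080, unadjusted p of 0.000169, adjusted p = 0.203). Its adjusted p was 0.021 with DESeq2 and 0.0432 in edgeR without DHEA library 3, and ranged from 0.021 to 0.727 over 20 alternative settings. The efflux pumps Abcg2 and Abcb1a had log2 fold changes of 0.30 (SE 0.11) and 0.24 (SE 0.085), both with an edgeR adjusted p of 0.381, and Slco2b1 had 0.20 (SE 0.092, edgeR adjusted p = 0.531). Abcb1a was at 0.16 without DHEA library 2, where its unadjusted p was 0.0592 in edgeR. Without both DHEA libraries 1 and 2, Abcb1a was at 0.16 (unadjusted p of 0.076) and Abcg2 at 0.26 (0.0534). Slco2b1 was at 0.18 without DHEA library 1 (unadjusted p of 0.094), 0.16 without DHEA library 2 (0.117) and 0.12 without both (0.245), and had an unadjusted p above 0.05 in 15 of 20 alternative settings. Slco1c1, the carrier of thyroid hormone and the most abundant of this list at 25.5 FPKM, had a log2 fold change of 0.21 (edgeR adjusted p = 0.542).

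**Figure D4:**
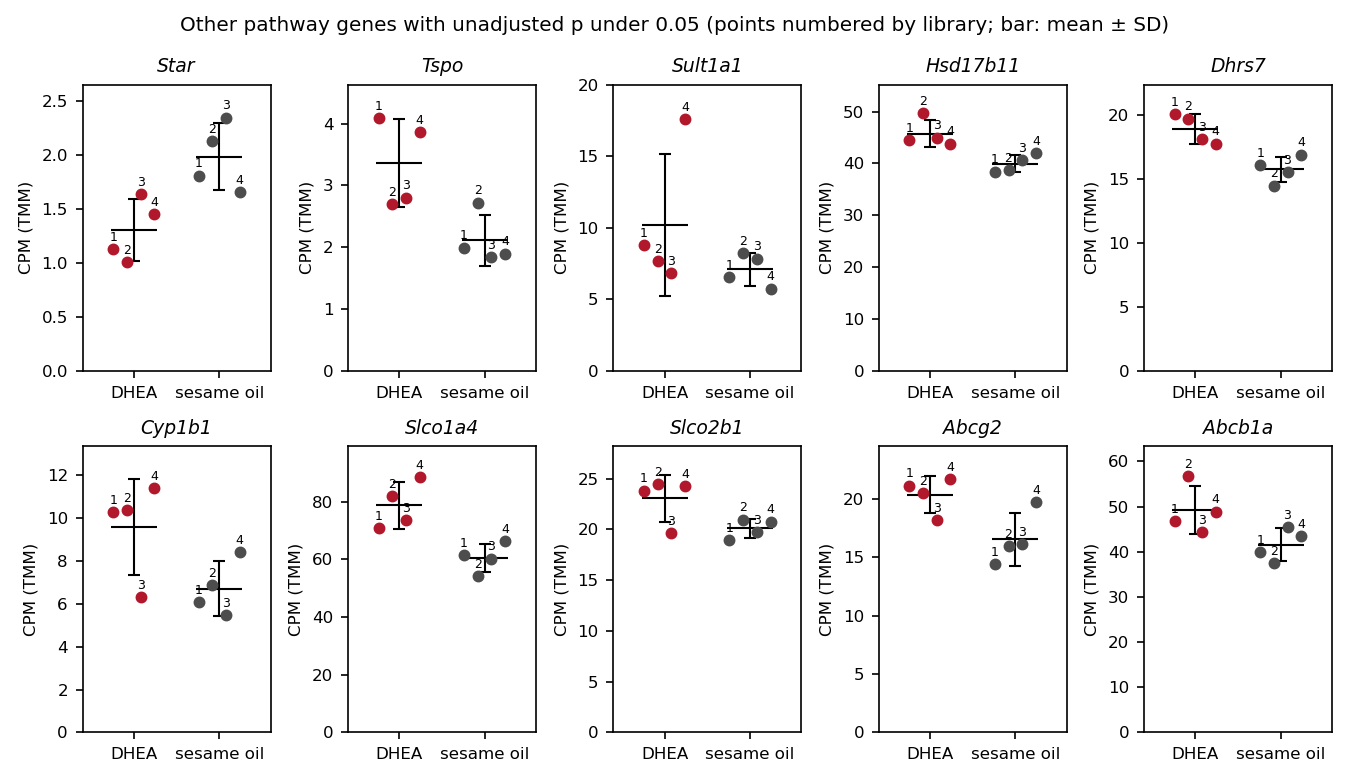
CPM (vertical axes, starting at 0) in each of the 8 libraries for the 10 other pathway genes with an unadjusted p under 0.05. Points carry the library number and bars give mean ± SD. Hsd17b11, Dhrs7, Slco1a4 and Star show groups without overlap, and the Sult1a1 difference lies in DHEA library 4 at 17.6 CPM.

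Marker levels of several cell types are given beside these genes. At the unadjusted threshold of edgeR, 4.82% of all genes were higher under DHEA, and 6.85% of those whose mean count was 10 or more. Of genes whose mean count was 100 or more, 15.7% were past it in either direction. All 11 oligodendrocyte markers were higher with an unadjusted p under 0.05 (edgeR, median log2 fold change 0.39), and their summed level was 7030, 8873, 6955 and 7302 CPM under DHEA and 5608, 5581, 4726 and 6717 CPM under sesame oil, without overlap (exact two-sided permutation p = 0.0286). Astrocyte markers were higher in 10 of 10 genes, 6 with an unadjusted p under 0.05, and summed to 6418, 7630, 6858 and 6734 CPM against 5645, 6014, 6269 and 6523 CPM with overlap (exact permutation p = 0.0571), with Slc1a2 the most abundant at 3324 to 4641 CPM. Microglia markers were higher in 9 of 9 genes, 3 past the threshold, and summed to 394.0, 463.5, 368.7 and 349.8 CPM against 319.1, 344.5, 334.3 and 371.6 CPM with overlap (exact permutation p = 0.0857). Endothelial and mural markers were higher in 8 of 10 genes, 3 past the threshold, and summed to 652.6, 642.8, 504.4 and 562.4 CPM against 541.6, 512.8, 533.9 and 538.7 CPM with overlap (exact permutation p = 0.229), led by Rgs5 at 146.5 to 222.8 CPM. That list contains Slco1c1 itself. The part of these cell types in the values of Sts, Srd5a1, Hsd11b1, Tspo, Cyp1b1 and the transporters was not tested.

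Neuronal markers summed to 8181 ± 360 CPM under DHEA and 8138 ± 297 CPM under sesame oil (SD, n = 4 each), and 6 of 10 were higher. Hippocampal neuron markers summed to 1145 ± 12.96 and 1203 ± 103 CPM, and 3 of 10 were higher. Past the unadjusted threshold of edgeR, 1 of 10 neuronal markers was lower, against 4.49% of all genes. In the hippocampal list, 1 of 10 was higher past it, against 4.82% of all genes. Oligodendrocyte precursor markers were higher in 7 of 7 genes, 2 past the unadjusted threshold, where 4.82% of all genes were higher past it. Their sums were 267.8 ± 13.6 against 237.8 ± 8.89 CPM, without overlap (exact two-sided permutation p = 0.0286), with Sox10 the most abundant at 29.0 to 42.1 CPM. Choroid plexus markers had positive log2 fold changes in 10 of 10 genes (median 0.45), none of them past the unadjusted threshold (0 of 10, edgeR). Their sums overlapped between the groups (exact permutation p = 0.571) at 4612, 99.4, 2276 and 4264 CPM under DHEA and 3214, 2095, 2335 and 527.3 CPM under sesame oil, with Ttr the most abundant at 60.4 to 4015 CPM. Meningeal fibroblast markers, led by Ptgds, summed to 1360, 734.7, 469.4 and 1310 CPM under DHEA (968.5 ± 437 CPM). Under sesame oil they summed to 932.4, 853.4, 999.8 and 856.6 CPM (910.5 ± 69.8 CPM). The part of meningeal cells in the Cyp1b1 values was not tested. Markers of thalamus (led by Calb2; 257.0 against 239.0 CPM), neocortex (Lamp5; 321.5 against 330.1 CPM) and red blood cells (Hbb-bs; 114.5 against 105.0 CPM) overlapped between the groups. Past the unadjusted threshold, 1 of 8 thalamus markers was higher and 1 of 8 neocortex markers was lower. No meningeal fibroblast marker (0 of 10) or red blood cell marker (0 of 5) was past it. Anterior pituitary markers, led by Prl, were at 3.39, 1.85, 2.25 and 2.35 CPM under DHEA and 3.53, 30.3, 3.65 and 6.94 CPM under sesame oil, without overlap (exact two-sided permutation p = 0.0286). Of these 8 markers, 6 were lower and 2 higher. Past the unadjusted threshold, 3 of 8 genes were lower, against 4.49% of all genes in this direction. The list includes Pomc, which the paper reports higher under DHEA by quantitative PCR of additional hippocampal samples. The level of Pomc alone is not given here. No marker gene was at 0 in all libraries (0 genes in each of the 13 lists).

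**Figure D5:**
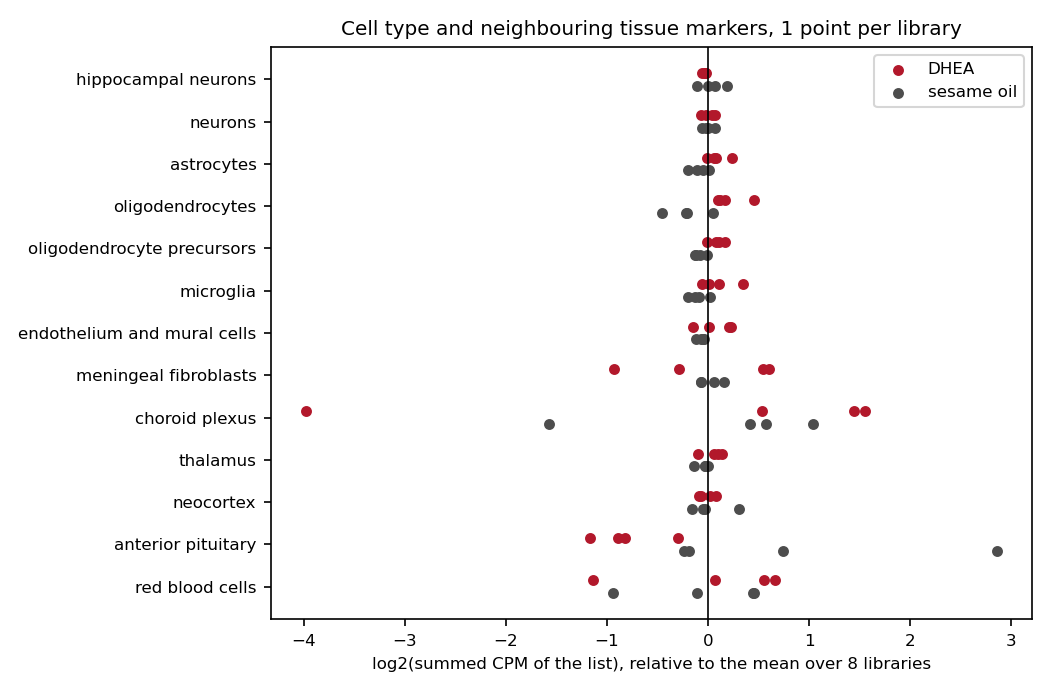
Log2 of the summed CPM of each marker list relative to its mean over the 8 libraries (horizontal axis), with 1 point per library. Oligodendrocyte sums are higher in every DHEA library (6955 to 8873 CPM) than in every sesame oil library (4726 to 6717 CPM), while choroid plexus sums spread from 99.4 to 4612 CPM within the DHEA group.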

How the data were processed

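Total RNA of ventral hippocampus from 8 female mice was made into libraries and sequenced as paired-end reads. Per the labels, fastp, HISAT2 and HTSeq were used with the build GRCm39, and their versions are not given in the sources used here. The files deposited by the authors hold raw read counts of each gene and FPKM values. The deposited FPKM equalled the count over the library total and 1 length per gene (within 0.1% for 25234 of 25234 genes checked), so they are no separate measurement. Groups follow the deposited labels. The study's own table of fold changes and p-values, which was not used, carries the opposite sign, so directions hold for the libraries as labelled. By quantitative PCR of additional hippocampal samples, the paper reports Aox2, Pomc and Wnt3a higher under DHEA. It reports Avpr1a, Ccr10 and P2ry10b lower, and describes these directions as those of its sequencing. Whether the labels or the signs were exchanged was not tested.

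Counts of the 27612 genes with at least 1 count were normalized by TMM and tested with the quasi-likelihood test of edgeR 4.0.16 (R 4.3.3, prior count 0.125) with Benjamini-Hochberg adjustment over all of them. The standard error is the log2 fold change divided by the square root of F. Single CPM values were compared by two-sided exact permutation over 70 allocations of 4 libraries against 4 (smallest p 0.0286). Libraries were numbered in accession order, which pairs nothing, and the labels give no batch. The series' design text counts 6 tissues, and 8 libraries are deposited. They were treated as separate mice, as the methods imply. Counting limits of 3 counts cover counting error only.

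The members and lists were chosen with earlier results of these data known. Named genes were the members, pathway genes whose mean count was 10 or more with an unadjusted p under 0.05, the most abundant gene in FPKM of each pathway and marker list, and for each member except Cyp19a1 the 2 genes with the highest r of log2(CPM + 0.5) among those whose mean count was 100 or more. Sumf1, Sumf2, Cyp11a1 and the genes at or near 0 were named after their values were seen. Some marker genes that this rule names are not reported here. Sult2a8, Hsd17b8, Akr1c6 and Cyp7a1 were not analysed here. Promoters came from RefSeq tables of GRCm38.p6, matched by symbol for 7 of 10 members. GC content came from the longest GENCODE transcript of the same symbol, for 92.7% of the genes with mean counts of 10 or more and for all members but Sts. Alternatives were DESeq2 1.42.0, RLE size factors, at least 10 counts, robust moderation, filterByExpr, a prior count of 1, limma-trend (limma 3.58.1) on log2(FPKM + 1) and log2(FPKM + 0.1), thinning to equal totals, GC trend removal (lowess span 0.3) and leaving out each library. Leaving out DHEA libraries 1 and 2 together, and both libraries numbered 4 together, was added after seeing the data. The scripts were tested on simulated counts.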

Additional observations from a re-analysis of the deposited data

Results flagged for a closer look

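Values were flagged where 1 library lay far from the other 3 of its group, by Dixon's ratio of gap to range above its 95% critical value. Of 74 groups of 4 examined, 5 were flagged, and chance alone would flag about 1 in 20, or 3.7. Sts was lowest in DHEA library 1 at 4.52 CPM, while the other DHEA libraries lay between 5.72 and 5.80 CPM. Cyp19a1 was highest in sesame oil library 2 at 0.168 CPM, while the other sesame oil libraries were at 0. Slco2b1 was lowest in DHEA library 3 at 19.6 CPM, against 23.8 to 24.4 CPM in the others. The summed anterior pituitary markers were highest in sesame oil library 2 at 30.3 CPM, against 3.53 to 6.94 CPM in the others. On the first principal component of genes whose mean count was 10 or more, sesame oil library 4 was highest of its group. It lay at -3.62, against -10.04 to -9.95 in the others. The causes were not tested.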

How the results depend on the processing

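The 20 alternative settings left the count of members with an adjusted p under 0.05 at 0, with 8 of 10 members given an adjusted p by DESeq2, while calls over all genes went from 0 to 153 with DESeq2 and 93 without DHEA library 3. The count with an unadjusted p under 0.05 was 3, ranged from 1 to 3 with single libraries left out (1 without DHEA library 1 and without sesame oil library 3), and was 0 without both DHEA libraries 1 and 2. Srd5a1, Srd5a3, Hsd11b1, Hsd17b10 and Hsd17b12 kept their direction in all 20 settings, and Sts in the 19 that applied to it, since the GC correction did not. Sts ranged from -0.41 to -0.30 and lost its unadjusted call in 3 settings, Srd5a1 ranged from 0.18 to 0.37 and lost it in 4, and Hsd11b1 ranged from 0.12 to 0.27 and lost it in 13. Hsd17b12 gained one without DHEA library 4 (0.18). Cyp7b1 changed sign on FPKM with limma-trend (-0.0048 with 1 added and -0.0052 with 0.1 added), after GC trend removal (-0.0029) and without DHEA libraries 1 and 2 (-0.10), and ranged from -0.039 to 0.070 with single libraries left out. Hsd17b4 changed sign after GC trend removal (0.0053) and ranged from -0.047 to 0.018 with single libraries left out. Akr1c14 ranged from -0.032 to 0.29 with single libraries left out and was -0.34 without DHEA libraries 1 and 2. Cyp19a1 ranged from -1.90 to 2.76 with single libraries left out, a fit to at most 6 counts that is no estimate of a change, and had too few counts to be tested with at least 10 counts or with filterByExpr. The median of the 9 members other than Cyp19a1 was 0.027 without DHEA library 2 and 0.028 without DHEA libraries 1 and 2. Of the other pathway genes, 9 higher and 1 lower became 5 and 2 without DHEA libraries 1 and 2, 7 and 2 without both libraries numbered 4, 9 and 2 with DESeq2, 8 and 2 with RLE size factors, 7 and 2 with at least 10 counts and with filterByExpr, and 7 and 3 with both limma-trend settings. With single libraries left out, the higher count ranged from 7 to 13 and the lower count from 0 to 3. Slco1a4 kept an unadjusted p under 0.05 in all 20 settings, whereas Star lost it in 5, Sult1a1 in 9, Slco2b1 in 15, Cyp1b1 in 3, Abcb1a in 2, and Tspo, Abcg2, Dhrs7 and Hsd17b11 in 1 each. The median log2 fold change of genes whose mean count was 100 or more stayed between -0.018 and 0.028 over the settings. The methods name littermates as controls for the behavioural tests. No paired analysis was possible, because the labels do not link mice between the groups. Other causes of these shifts were not tested.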
